A study of Mus musculus with 4 samples.

Results

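The cells described here, called Apoe Gata2 cells below, are mouse bone marrow cells that carry RNA of Apoe and Gata2 and lack RNA of 6 genes of committed lineages. There were 687 of them among 37717 cells kept from 6 mice. A cell was kept if it had at least 500 genes, at least 1000 gene UMIs (unique molecular identifiers, each counting 1 captured RNA molecule), at most 10% of its UMIs from mitochondrial genes and at least 80% of its hashtag UMIs from 1 hashtag. A kept cell was an Apoe Gata2 cell if it had at least 2 UMIs of Apoe, at least 1 UMI of Gata2 and 0 UMIs of each of Car1, Pf4, Ms4a2, Mcpt8, Elane and Ebf1. The measured UMIs of those 8 genes therefore chose the members, which were selected on these 8 genes, and their levels in these cells are a description.

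All 6 mice were female, carried Tppp3CreER and LSLTdTomato and were 6 weeks old per the labels, while the design text says that cells were isolated after 2 weeks without stating from which day. In the tamoxifen+rapamycin group, 2 mice received both drugs on the day of birth (postnatal day 0) and on postnatal day 3. In the tamoxifen group, 2 mice received tamoxifen on the same days. In the late rapamycin group, called the control in the hashing table, 2 mice received rapamycin on postnatal day 30 and no tamoxifen is named for them. Tamoxifen activates the CreER recombinase in cells that express Tppp3, and the LSLTdTomato reporter then marks those cells and their progeny. The recombined cells were not analysed here. Rapamycin inhibits mTORC1, a kinase complex that promotes translation and growth. Lin-Sca+Kit+ cells, Lin-Sca-Kit+ cells and whole bone marrow are named for each library without their proportions. On each of 2 processing days, 1 mouse of each group was tagged with its own antibody hashtag, and the 3 mice were run as 1 library, so replicate 1 is day 1 and replicate 2 is day 2. The labels number the tamoxifen mice 1 and 4 and the tamoxifen+rapamycin mice 2 and 5, while the hashing table assigns hashtags 1 and 4 to tamoxifen+rapamycin and hashtags 2 and 5 to tamoxifen. The hashing table was followed. If the label numbers were hashtag numbers, both tamoxifen treatments would be exchanged in every value below.

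Megakaryocytes, which shed platelets, and erythroid cells, which become red cells, arise from shared precursors that branch from haematopoietic stem cells. GATA2 is a transcription factor of stem cells and early precursors, and its relative GATA1 takes over as erythroid, megakaryocytic and mast cell genes are switched on. KLF1 is tied to the erythroid branch and FLI1 to the megakaryocytic branch. APOE is a lipoprotein that carries cholesterol out of cells.

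Of the 37717 kept cells, 3726 had at least 2 Apoe UMIs, 6037 had a Gata2 UMI and 1827 had both. Of these 1827 cells, 679 had a UMI of Car1 (an erythroid carbonic anhydrase), 178 of Pf4 (a platelet chemokine), 183 of Ms4a2 (the beta chain of the IgE receptor of mast cells and basophils), 51 of Mcpt8 (a basophil protease), 235 of Elane (neutrophil elastase) and 47 of Ebf1 (a B-lineage transcription factor). The 687 cells left came as 127 and 130 from the tamoxifen+rapamycin mice, 75 and 117 from the tamoxifen mice and 80 and 158 from the late rapamycin mice. Their summed depth was 492853 and 666615 gene UMIs with tamoxifen+rapamycin, 296324 and 576145 with tamoxifen and 331512 and 983442 with late rapamycin. The median Apoe Gata2 cell had 4346 UMIs, against 3722 in the other 37030 kept cells. No Apoe Gata2 cell shared its barcode with a kept cell of the other day, while 75 kept barcodes overall were shared. Levels are given in CPM, the UMIs of a gene scaled to a fixed total of gene UMIs in the same cells of 1 mouse. For cells at the thresholds of the rule and for cells split by a UMI, CPM was taken over the cells of all mice together.

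At the Apoe threshold, the 297 members with exactly 2 Apoe UMIs had 230 CPM of Tgfbr3, 59.7 CPM of Itga2b, 54.0 CPM of Gata1 and 386 CPM of Hlf. The 596 cells just outside it, with 1 Apoe UMI and every other condition met, had 169 CPM of Tgfbr3, 36.6 CPM of Itga2b, 22.4 CPM of Gata1 and 556 CPM of Hlf. At the Gata2 threshold, the 377 members with exactly 1 Gata2 UMI had 258 CPM of Tgfbr3, 72.1 CPM of Itga2b, 49.2 CPM of Gata1 and 328 CPM of Hlf. The 907 cells just outside, with no Gata2 UMI, had 174 CPM of Tgfbr3, 45.3 CPM of Itga2b, 27.2 CPM of Gata1 and 342 CPM of Hlf. At both thresholds the members just inside had more Tgfbr3, Itga2b and Gata1 than the cells just outside. Hlf was lower inside at the Apoe threshold and nearly equal at the Gata2 threshold. The median depth was 4156 UMIs inside and 3841.5 outside at the Apoe threshold, and 4218 and 3228 at the Gata2 threshold. The part of depth in these differences was not tested.

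Slc18a2, which encodes the vesicular monoamine transporter, and Cpa3, which encodes the mast cell protease carboxypeptidase A3, were among the genes that set these cells apart, and Cpa3 also differed between treatments. GATA factors bind the core letters GATA, and their promoters are shown because each holds 1 of the 6-letter motifs AGATAA and TGATAA, searched on both strands. The windows run from 250 bases before to 50 after the start of transcription, from RefSeq on build GRCm38.p6, 5′ to 3′ on the gene's strand, with the motif in capitals.
Slc18a2 promoter (chr19:59260628-59260927, + strand, motif starting 230 bases before the start, read as the reverse complement of AGATAA): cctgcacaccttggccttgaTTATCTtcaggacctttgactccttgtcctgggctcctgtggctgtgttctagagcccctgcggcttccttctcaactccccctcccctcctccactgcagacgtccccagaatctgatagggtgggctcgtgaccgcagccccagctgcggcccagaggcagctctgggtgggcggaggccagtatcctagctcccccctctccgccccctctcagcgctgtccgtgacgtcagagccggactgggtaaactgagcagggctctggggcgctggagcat
Cpa3 promoter (chr3:20242132-20242431, - strand, motif starting 46 bases before the start): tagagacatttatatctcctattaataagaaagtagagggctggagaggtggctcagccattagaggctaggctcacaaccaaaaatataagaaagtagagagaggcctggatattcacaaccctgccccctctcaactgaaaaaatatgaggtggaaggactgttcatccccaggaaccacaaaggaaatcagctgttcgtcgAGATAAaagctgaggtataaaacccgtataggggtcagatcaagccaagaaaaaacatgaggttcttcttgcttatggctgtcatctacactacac
Of the 20 genes that led these cells by ratio among genes with at least 50 CPM in them, which include all 5 markers, 15 had a promoter in the table, and 3 of the 15 (20%) held a motif, namely Slc18a2, Prkg1 and Cpa3. Of all 27025 genes in the table, 21% held one, so the share among the leading genes was near that of all genes. The windows of Apoe, Gata2, St8sia6, F2r and Itga2b did not hold these letters.

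Apoe (chromosome 7, 19696109 to 19699188, build GRCm38) averaged 725 ± 81.5 CPM in Apoe Gata2 cells and 85.3 CPM in all other kept cells (mean ± SD, n = 6 mice). Gata2 (chromosome 6, 88193891 to 88207032) averaged 383 ± 53.3 CPM in Apoe Gata2 cells and 44.8 CPM in the other cells. Both values follow from the rule. The other 3 marker genes were not used by it. Tgfbr3 (chromosome 5, 107106570 to 107289629) encodes betaglycan, a co-receptor that presents TGF-beta to its signalling receptors. It had 426 and 309 CPM in the tamoxifen+rapamycin mice, 358 and 289.9 CPM in the tamoxifen mice and 404 and 196 CPM in the late rapamycin mice. The lowest of these, late rapamycin replicate 2, lay above the highest value in the other cells, 76.8 CPM. F2r (chromosome 13, 95601803 to 95618487) encodes the thrombin receptor PAR1. It had 85.2 and 61.5 CPM in the tamoxifen+rapamycin mice, 97.9 and 74.6 CPM in the tamoxifen mice and 121 and 53.9 CPM in the late rapamycin mice, against 8.72 to 18.5 CPM in the other cells of the 6 mice. St8sia6 (chromosome 2, 13651021 to 13794064) encodes a sialyltransferase that adds alpha-2,8-linked sialic acid. It had 48.7 and 37.5 CPM in the tamoxifen+rapamycin mice, 64.1 and 71.2 CPM in the tamoxifen mice and 87.5 and 34.6 CPM in the late rapamycin mice, against 6.56 to 14.5 CPM in the other cells. For each of the 3 genes the Apoe Gata2 cells of every mouse were above the other cells of every mouse. The 3 are also among the genes leading by ratio in these same data, so this separation is a description. The highest value was in tamoxifen+rapamycin replicate 1 for Tgfbr3 and in late rapamycin replicate 1 for F2r and St8sia6.

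Since the label names megakaryocyte-erythroid precursors, the cells were checked against genes of each branch after every cell was thinned to 2000 UMIs, which left out 14 of the 687 cells. A Tgfbr3 UMI was present in 42.8% of the remaining 673 cells, in 10.4% of the other kept cells and in 3.78% of B cells, a type that should lack it. For F2r the shares were 14.9%, 3.07% and 0.122% in the same order, and for St8sia6 10.4%, 2.00% and 1.22%. Itga2b, the platelet integrin subunit, was detected in 15.9% of Apoe Gata2 cells and 3.03% of the others, and Gata1 in 11.9% and 5.02%. Klf1 was detected in 3.12% of Apoe Gata2 cells, below the 5.16% of the others, and Epor, the erythropoietin receptor, in 2.23% and 2.03%. Cpa3 was detected in 12.5% and 2.93%. Hlf, a stem cell transcription factor, was detected in 30.2% of Apoe Gata2 cells and 28.2% of the others, while Mecom, another stem cell transcription factor, was detected in 49.3% and 34.1%. Without thinning, the shares in Apoe Gata2 cells and in the others were 60.7% and 17.4% for Tgfbr3, 24.7% and 5.25% for F2r, 16.7% and 3.02% for St8sia6, 28.8% and 5.07% for Itga2b, 23.7% and 10.4% for Gata1, 6.99% and 9.88% for Klf1, 21% and 4.18% for Cpa3 and 46.1% and 34.1% for Hlf. The B cells were 2148 cells with a median of 1562 UMIs, of which 821 were deep enough to be thinned. The megakaryocyte gene Itga2b, the mast cell gene Cpa3 and the stem cell genes Hlf and Mecom were therefore present. Other genes of mast cells and stem cells went both ways. Hdc, of mast cells and basophils, averaged 11.2 CPM in Apoe Gata2 cells and 46.4 CPM in the others. Of the stem cell list, Ly6a averaged 20.7 and 30.8 CPM, and Kit 395 and 205 CPM. The rule removed every cell with a Car1 UMI, 679 of the 1827 cells with Apoe and Gata2, so the detection of Klf1 and Epor cannot judge the erythroid part of the label, and the cells are called by their 2 genes. Doublets within a mouse were not removed.

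Among genes with a mean of at least 50 CPM in Apoe Gata2 cells, the one with the largest ratio after Gata2 and Apoe was Slc18a2, at 217 and 176 CPM in the tamoxifen+rapamycin mice, 199 and 210.0 CPM in the tamoxifen mice and 223 and 167 CPM in the late rapamycin mice. All 6 values were above those of the other kept cells, which averaged 32.1 CPM. Itga2b averaged 85.8 ± 29.0 CPM in Apoe Gata2 cells and 15.3 CPM in the others, a ratio of 5.61. Prkg1, a cGMP-dependent protein kinase, averaged 684 ± 100.3 CPM and 124 CPM, and Pcdh7, a protocadherin, 279 ± 59.8 CPM and 50.7 CPM. Against the megakaryocyte progenitors described below, Prkg1 was lower in Apoe Gata2 cells (-0.80 ± 0.07, adjusted p = 1.15e-16) and the difference of Pcdh7 did not pass the test (0.16 ± 0.10, adjusted p = 0.248). Slc22a3, an organic cation transporter, averaged 401 ± 45.1 CPM and 90.1 CPM. Cpa3 averaged 108 ± 57.9 CPM and 25.4 CPM. Below the limit of 50 CPM, Slamf1 averaged 44.5 CPM in Apoe Gata2 cells and 4.83 CPM in the others, and Tek 48.4 and 8.47 CPM. In the megakaryocyte progenitors Slamf1 averaged 34.8 CPM and Tek 57.6 CPM, so Tek was not particular to Apoe Gata2 cells. For all 20 leading genes the lowest mouse of the Apoe Gata2 cells lay above the highest mouse of the other cells. The narrowest gap was for Slc7a8, an amino acid transporter, at 23.6 CPM in tamoxifen replicate 1 against a highest value of 23.4 CPM in the other cells. These genes were ranked by this same ratio, which favours such gaps, so no test was made. The share of all genes with such a gap was not counted, so the gaps are no result about these genes.

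**Figure D1:**
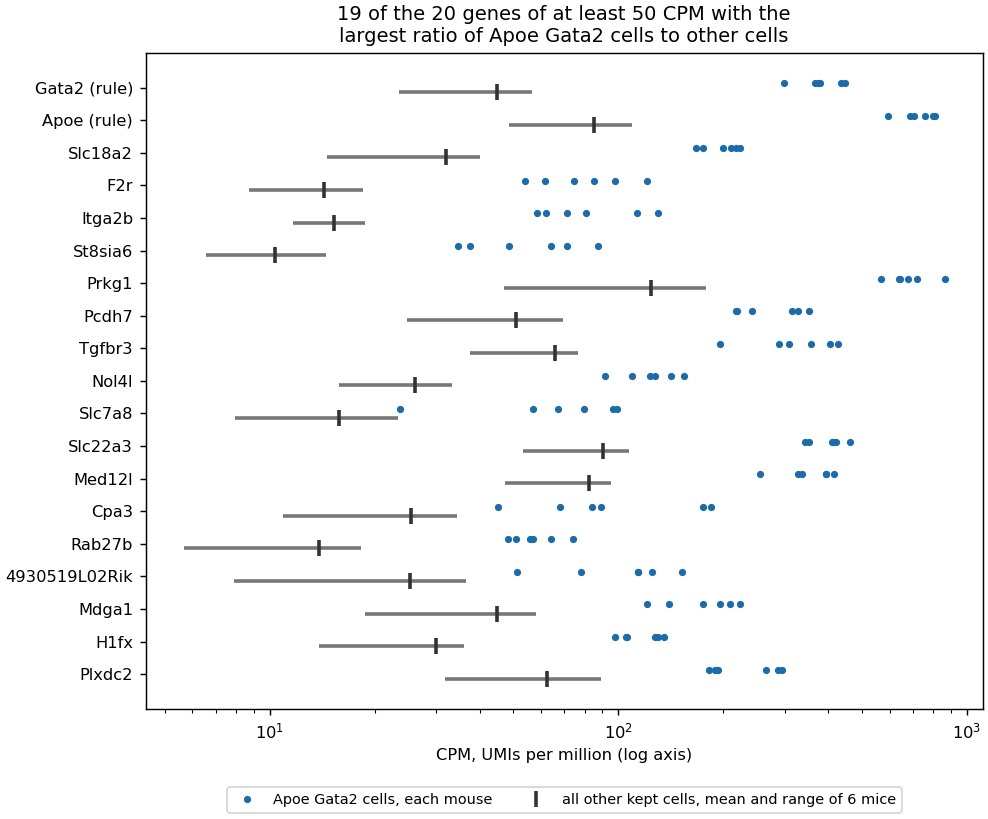
Level in CPM on a log axis of 19 of the 20 genes, among those with at least 50 CPM in Apoe Gata2 cells, with the largest ratio of mean CPM in Apoe Gata2 cells to that in all other kept cells, with 1 point per mouse for the Apoe Gata2 cells, treatments not marked, and the mean and range over the 6 mice for the other cells. For every gene drawn all 6 points lie above the range of the other cells, with the smallest gap for Slc7a8. The genes were ranked by this same ratio, which favours such gaps.

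The Apoe Gata2 cells were then set against 3 other sets of kept cells that also lacked Ms4a2, Mcpt8, Elane and Ebf1. The 2636 erythroid progenitors had at least 2 Car1 UMIs, a Klf1 UMI and no Pf4 UMI. The 274 megakaryocyte progenitors had at least 2 Pf4 UMIs, an Itga2b UMI and no Car1 UMI. The 814 stem marker cells had a UMI of Procr (EPCR) and of Hlf and none of Car1 or Pf4. UMIs were summed per mouse and set, and each gene was tested within mice by edgeR's quasi-likelihood test with Benjamini-Hochberg adjustment and the mouse as block. Against the erythroid progenitors, 3652 of 9975 genes (36.6%) were higher and 3747 (37.6%) lower in Apoe Gata2 cells at an adjusted p under 0.05. Against the megakaryocyte progenitors, 897 of 6069 genes (14.8%) were higher and 909 (15.0%) lower. Against the stem marker cells, 1106 of 7991 genes (13.8%) were higher and 1185 (14.8%) lower. The median log2 difference of all genes tested was -0.02, -0.01 and 0.01 in that order. The shares of all genes called are the background for the list counts below. A list count near them is no result about the list. The genes used to choose any of the compared cells are left out of each count, and the rules themselves set cells without Car1 or Pf4 against cells with it. A gene entered a test if its UMIs passed the low-count filter in the 2 sets compared, so list members low in both are not counted. The median depth was 11428 UMIs in erythroid progenitors, 6102 in megakaryocyte progenitors and 3341.5 in stem marker cells, and the part of depth in these differences was not tested.

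Transcription factors of this branch point differed in both directions from each of the other sets. Against the erythroid progenitors, 9 of 16 tested were higher and 7 lower in Apoe Gata2 cells (median log2 difference 0.29). Fli1, a megakaryocytic ETS factor, averaged 623 ± 56.2 CPM in Apoe Gata2 cells, 23.4 ± 4.04 CPM in erythroid progenitors and 1488 ± 199 CPM in megakaryocyte progenitors. It was thus higher than in erythroid progenitors (log2 difference 4.46 ± 0.09, adjusted p = 2.30e-25) and lower than in megakaryocyte progenitors (-1.29 ± 0.06, adjusted p = 2.51e-28). Mef2c, another megakaryocytic factor, stood likewise between both, at 3.81 ± 0.08 against erythroid and -1.30 ± 0.07 against megakaryocyte progenitors. Gfi1b, a repressor that both branches need, was lower than in erythroid progenitors (-2.0 ± 0.12, adjusted p = 2.32e-14) and higher than in stem marker cells (1.90 ± 0.26, adjusted p = 1.07e-07). Gata1 averaged 72.4 ± 18.3 CPM in Apoe Gata2 cells, 185 ± 14.9 CPM in erythroid progenitors and 65.8 ± 20.5 CPM in megakaryocyte progenitors, and it was lower than in erythroid progenitors (log2 difference -1.64 ± 0.11, adjusted p = 8.22e-14). Against the megakaryocyte progenitors its difference did not pass the test (0.06 ± 0.17, adjusted p = 0.848). The stem marker cells held only 3 Gata1 UMIs in all, and the pooled ratio of Apoe Gata2 cells to them was 73.7 with a counting interval of 24.9 to 360.0.

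Against the megakaryocyte progenitors, 4 of 15 factors were higher and 5 lower (median -0.11). Myb, a factor of proliferating progenitors, averaged 616 ± 47.4 CPM in Apoe Gata2 cells and 249 ± 35.5 CPM in megakaryocyte progenitors (1.26 ± 0.09, adjusted p = 9.95e-20). Ikzf1, a lymphoid and myeloid zinc finger factor, and Spi1, the myeloid factor PU.1, were also higher, by 1.31 ± 0.11 and 1.66 ± 0.21. Zfpm1, the GATA1 cofactor FOG1, was lower than in megakaryocyte progenitors (-0.94 ± 0.09, adjusted p = 1.42e-13). Against the stem marker cells, 6 of 16 factors were higher and 4 lower (median 0.06). Zfpm1 was higher there, at 301 ± 56.1 CPM in Apoe Gata2 cells and 106 ± 16.6 CPM in stem marker cells (1.43 ± 0.10, adjusted p = 7.65e-16), and so was Runx1, a factor of stem cells and megakaryocytes (0.44 ± 0.05, adjusted p = 4.89e-09). Lmo2, an adaptor of the TAL1 complex, was lower (-0.54 ± 0.07, adjusted p = 5.35e-09).

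Megakaryocyte and platelet genes were higher in Apoe Gata2 cells than in erythroid progenitors and lower than in megakaryocyte progenitors. The rules chose Apoe Gata2 cells without Pf4 and megakaryocyte progenitors with Pf4 and Itga2b. The lower levels were therefore favoured by the choice of cells and are a description. Of 23 listed genes, 13 were tested against erythroid progenitors, where 12 were higher and 0 lower (median 3.90), and Gp5 did not pass the test (0.32 ± 0.22, adjusted p = 0.188). Against megakaryocyte progenitors, 0 of 14 were higher and 13 lower (median -2.62), and Slamf1, the stem cell marker CD150, did not pass (0.19 ± 0.24, adjusted p = 0.599). Against stem marker cells, 7 of 9 were higher and 1 lower (median 0.83). Itga2b had 71.0 and 58.5 CPM in the tamoxifen+rapamycin mice, 81.0 and 113 CPM in the tamoxifen mice and 129.7 and 62.0 CPM in the late rapamycin mice in Apoe Gata2 cells. Every one of these values was above the mean in erythroid progenitors (2.43 ± 0.657 CPM) and in stem marker cells (12.4 ± 6.14 CPM), with log2 differences of 4.80 ± 0.20, adjusted p = 3.14e-18 and 2.61 ± 0.22, adjusted p = 1.30e-13. Rab27b, which directs platelet granules, averaged 58.4 ± 9.54 CPM in Apoe Gata2 cells, 401 ± 90.4 CPM in megakaryocyte progenitors and 21.7 ± 7.12 CPM in stem marker cells. Members of the list differed widely in size against the megakaryocyte progenitors. Vwf, von Willebrand factor, averaged 18.4 ± 11.1 CPM in Apoe Gata2 cells and 269 ± 29.1 CPM in megakaryocyte progenitors (-3.73 ± 0.17, adjusted p = 9.33e-31). Cavin2, a caveolar protein of platelets, differed by -3.62 ± 0.14, adjusted p = 1.33e-35, and Rap1b, a small GTPase of platelet activation, by -2.86 ± 0.07, adjusted p = 7.54e-46, while Gp5 and Gp9, glycoprotein subunits of the von Willebrand factor receptor, differed by -1.99 ± 0.23 and -1.46 ± 0.19. Gp9 and Slamf1 were higher than in stem marker cells, by 2.08 ± 0.32 and 2.86 ± 0.31.

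Erythroid genes were lower than in erythroid progenitors throughout. The rules chose Apoe Gata2 cells without Car1 and erythroid progenitors with Car1 and Klf1. This direction was therefore also favoured by the choice of cells and is a description. Of 17 listed genes, 16 were tested, and 0 were higher and 16 lower, with a median of -5.35. Slc4a1, the anion exchanger of the red cell membrane, had 0 UMIs in Apoe Gata2 cells and 509 in erythroid progenitors, so it was at least 18.6-fold lower against a floor of 3 counts over all Apoe Gata2 cells, and the median with it at that bound was -4.67. Car2, a carbonic anhydrase, averaged 629.8 ± 76.9 CPM in Apoe Gata2 cells and 3381 ± 186 CPM in erythroid progenitors (-2.68 ± 0.06, adjusted p = 5.60e-24). Blvrb, biliverdin reductase B, averaged 62.8 ± 16.1 CPM and 915 ± 52.3 CPM. The globin genes Hbb-bs and Hba-a1, whose reads can be shared with near-identical copies, differed by -7.53 ± 0.17 and -7.26 ± 0.17. Rhd and Ermap, red cell membrane proteins, differed by -6.16 ± 0.16 and -5.59 ± 0.15. Against each of the other 2 sets only 5 erythroid genes passed the low-count filter. Against megakaryocyte progenitors, 1 of 5 tested was higher and 1 lower, and the higher one was Car2 (0.76 ± 0.09, adjusted p = 8.17e-11). Against stem marker cells, 2 of 5 tested were higher, among them Blvrb (1.12 ± 0.19, adjusted p = 4.25e-06), and 0 were lower.

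Stem cell genes were mostly higher than in erythroid progenitors, 13 of 14 tested, with 1 lower (median 4.73). Mecom averaged 588 ± 149 CPM in Apoe Gata2 cells, 13.6 ± 3.65 CPM in erythroid progenitors, 254 ± 91.6 CPM in megakaryocyte progenitors and 1247 ± 192 CPM in stem marker cells, so it was higher than in megakaryocyte progenitors (1.19 ± 0.09, adjusted p = 6.83e-18) and lower than in stem marker cells (-1.08 ± 0.06, adjusted p = 6.87e-20). Cd34, a surface sialomucin of early progenitors, had the same order, at 2.13 ± 0.17 against megakaryocyte progenitors and -0.89 ± 0.10 against stem marker cells. Hlf averaged 249 ± 120.5 CPM in Apoe Gata2 cells and 83.3 ± 42.0 CPM in megakaryocyte progenitors (1.53 ± 0.13, adjusted p = 5.17e-16). Kit, the stem cell factor receptor, was higher than in megakaryocyte progenitors (1.20 ± 0.11, adjusted p = 1.43e-15). Against megakaryocyte progenitors 6 of 12 were higher and 2 lower (median 0.39). Against stem marker cells 3 of 14 were higher and 6 lower (median -0.07). The receptor tyrosine kinase Flt3, which marks progenitors with lymphoid and myeloid potential, averaged 48.8 ± 19.5 CPM in Apoe Gata2 cells and 324 ± 59.6 CPM in stem marker cells (-2.67 ± 0.11, adjusted p = 1.70e-23), and Ly6a, the Sca-1 antigen, differed by -2.30 ± 0.18, adjusted p = 2.47e-14. Mllt3, a regulator of stem cell maintenance, was lower than in both erythroid progenitors (-0.30 ± 0.08) and stem marker cells (-0.80 ± 0.08).

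The receptors among the markers did not follow a common order. Tgfbr3 was higher than in erythroid progenitors (1.39 ± 0.11, adjusted p = 1.17e-11) and stem marker cells (1.88 ± 0.11, adjusted p = 7.67e-19), and its difference from megakaryocyte progenitors did not pass the test (0.15 ± 0.13, adjusted p = 0.387). F2r averaged 82.3 ± 24.6 CPM in Apoe Gata2 cells, 10.2 ± 2.13 CPM in erythroid progenitors, 192 ± 26.7 CPM in megakaryocyte progenitors and 19.1 ± 11.6 CPM in stem marker cells. It was lower than in megakaryocyte progenitors (-1.34 ± 0.14, adjusted p = 2.11e-13) and higher than in stem marker cells (2.11 ± 0.20, adjusted p = 1.21e-11). Of the 3 genes, St8sia6 alone passed the test as higher than all 3 other sets, at 57.3 ± 20.6 CPM in Apoe Gata2 cells, 10.7 ± 3.96 CPM in erythroid progenitors, 15.7 ± 9.38 CPM in megakaryocyte progenitors and 2.51 ± 2.92 CPM in stem marker cells. Its log2 differences were 2.06 ± 0.24, 1.70 ± 0.28 and 4.43 ± 0.34 in that order, with adjusted p = 8.06e-09, 9.12e-07 and 2.01e-14. Each of these called differences had the same sign in 6 of 6 mice. The 3 genes also lead by ratio over the other cells in these same data. These tests therefore describe the markers and give the label no separate support.

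Among ligands, receptors and effectors of the TGF-beta and BMP pathways, 14 of 15 tested were higher than in erythroid progenitors and 0 lower (median 1.44), 3 of 11 higher and 1 lower than in megakaryocyte progenitors (median 0.25), and 2 of 14 higher and 5 lower than in stem marker cells (median -0.25). The ligand gene Tgfb1 averaged 290.3 ± 54.0 CPM in Apoe Gata2 cells, 436 ± 35.3 CPM in megakaryocyte progenitors and 134 ± 7.32 CPM in stem marker cells, and it was the 1 lower gene in the first of these comparisons (-0.65 ± 0.09, adjusted p = 2.42e-08) and 1 of the 2 higher ones in the second (1.03 ± 0.10, adjusted p = 8.45e-12). The type II receptors Tgfbr2 and Bmpr2 were higher than in megakaryocyte progenitors, by 1.07 ± 0.18 and 1.19 ± 0.18. The activin receptor Acvr2a (-0.93 ± 0.21), the effector Smad3 (-0.46 ± 0.11) and the inhibitor Smad7 (-0.77 ± 0.20) were lower than in stem marker cells. Of the thrombin receptors and the proteins that relay their signal, 6 of 10 were higher and 1 lower than in erythroid progenitors (median 1.06), 1 of 9 higher and 4 lower than in megakaryocyte progenitors (median -0.14), and 1 of 8 higher and 1 lower than in stem marker cells (median 0.01). Of all genes, 13.8% were higher and 14.8% lower than in stem marker cells. The thrombin counts there, and the 2 of 14 TGF-beta and BMP genes that were higher, were near those shares. Plcb2, a phospholipase C activated by G proteins, was higher than in megakaryocyte progenitors (1.12 ± 0.17, adjusted p = 2.08e-07) and lower than in stem marker cells (-0.39 ± 0.11, adjusted p = 0.00648). F2rl2, the receptor PAR3, averaged 7.94 ± 4.76 CPM in Apoe Gata2 cells and 71.8 ± 19.3 CPM in megakaryocyte progenitors (-3.27 ± 0.29, adjusted p = 1.10e-15).

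Sialyltransferases did not move as a group. Of 11 tested, 4 were higher and 5 lower than in erythroid progenitors (median -0.11), of 6 tested 3 were higher and 1 lower than in megakaryocyte progenitors (median 0.54), and of 8 tested 2 were higher and 2 lower than in stem marker cells (median 0.03). Of all genes, 36.6% were higher than in erythroid progenitors, so 4 of 11 was near that share. St8sia4, which makes polysialic acid, averaged 65.3 ± 16.4 CPM in Apoe Gata2 cells, 15.4 ± 11.3 CPM in megakaryocyte progenitors and 212 ± 30.2 CPM in stem marker cells, so against the stem marker cells it differed in the other direction from St8sia6 (-1.72 ± 0.12, adjusted p = 2.53e-16). Cholesterol and lipoprotein genes other than Apoe were higher than in erythroid progenitors in 8 of 11 tested, with 1 lower (median 1.22). The exporter gene Abcg1 averaged 80.1 ± 17.0 CPM in Apoe Gata2 cells, 3.59 ± 1.20 CPM in erythroid progenitors and 30.3 ± 6.93 CPM in megakaryocyte progenitors (1.37 ± 0.20, adjusted p = 6.08e-08 in the second comparison). Against megakaryocyte progenitors 2 of 7 were higher and 0 lower (median 0.04), and against stem marker cells 0 of 11 were higher and 2 lower (median -0.17). Those 2 were Vldlr, a receptor that binds APOE, at 30.5 ± 27.0 CPM in Apoe Gata2 cells and 115 ± 99.5 CPM in stem marker cells (-1.86 ± 0.17, adjusted p = 3.33e-12), and Srebf2, the regulator of cholesterol synthesis genes (-0.55 ± 0.12, adjusted p = 1.91e-04).

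Cpa3 was higher in Apoe Gata2 cells than in each of the other 3 sets, at 108 ± 57.9 CPM against 1.83 ± 0.653 CPM in erythroid progenitors, 3.50 ± 3.16 CPM in megakaryocyte progenitors and 5.70 ± 5.33 CPM in stem marker cells. The log2 differences were 5.62 ± 0.19, adjusted p = 3.85e-20, then 4.86 ± 0.32, adjusted p = 3.33e-22, then 4.53 ± 0.24, adjusted p = 5.84e-20. The counts behind them were 340 UMIs in Apoe Gata2 cells, 54 in erythroid progenitors, 6 in megakaryocyte progenitors and 15 in stem marker cells. All 4 sets excluded the mast cell and basophil genes Ms4a2 and Mcpt8 by rule. Of the 11 mast cell and basophil markers listed, Prss34, Gzmb, Cma1 and Tpsb2 were also at 0 in Apoe Gata2 cells, and the summed level of the list was 84.5 to 259.9 CPM in Apoe Gata2 cells of the 6 mice and 109.9 to 155 CPM in the other kept cells.

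Cell cycle genes placed the Apoe Gata2 cells above the stem marker cells and below the erythroid progenitors. Of the G2M genes, 20 of 20 were higher than in stem marker cells (median 0.91), and 1 was higher and 16 lower than in erythroid progenitors (median -0.58). Mki67, the proliferation antigen Ki-67, averaged 846 ± 203 CPM in Apoe Gata2 cells, 1045 ± 118 CPM in erythroid progenitors and 371 ± 112 CPM in stem marker cells, with log2 differences of -0.59 ± 0.07 and 1.11 ± 0.09, adjusted p = 1.22e-13. Of the S phase genes, 15 of 19 were higher and 0 lower than in stem marker cells (median 0.54), and 0 of 20 were higher and 19 lower than in erythroid progenitors (median -1.0). Rrm2, a subunit of ribonucleotide reductase, differed from erythroid progenitors by -2.50 ± 0.10, adjusted p = 6.87e-19. Against megakaryocyte progenitors, 7 of 20 G2M genes were higher and 0 lower (median 0.17), Top2a among them (0.25 ± 0.08, adjusted p = 0.00708), while 0 of 18 S phase genes were higher and 5 lower (median -0.24). Interferon response genes were lower than in stem marker cells in 9 of 14 tested, with 0 higher (median -0.58), led by Ifi44 (-2.09 ± 0.23). Against erythroid progenitors 7 of 15 were higher and 1 lower (median 0.44), and against megakaryocyte progenitors 3 of 7 were higher and 0 lower (median 0.44). Heat shock and cold-inducible genes were lower than in erythroid progenitors in 9 of 11, with 1 higher (median -0.88), and lower than in megakaryocyte progenitors in 7 of 10, with 0 higher (median -0.26). Hspd1, the mitochondrial chaperonin, was at -2.18 ± 0.07 and -0.73 ± 0.09 there. Against stem marker cells 6 of 10 were higher and 0 lower (median 0.29). Translation factors responsive to mTORC1 were lower than in erythroid progenitors in 12 of 13 (median -0.65) and higher than in stem marker cells in 4 of 13 with 0 lower (median 0.10). Against megakaryocyte progenitors 0 of 13 were higher and 2 lower (median -0.02), where 15.0% of all genes were lower, a share near that of the list. Npm1, a nucleolar chaperone, was at -1.49 ± 0.05 against erythroid progenitors and 0.39 ± 0.05 against stem marker cells. Markers of other cells also moved in the last comparison, where 6 of 7 neutrophil markers tested were lower in Apoe Gata2 cells and 1 higher (median -1.08) and 3 of 3 endothelial markers were lower (median -0.76).

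**Figure D2:**
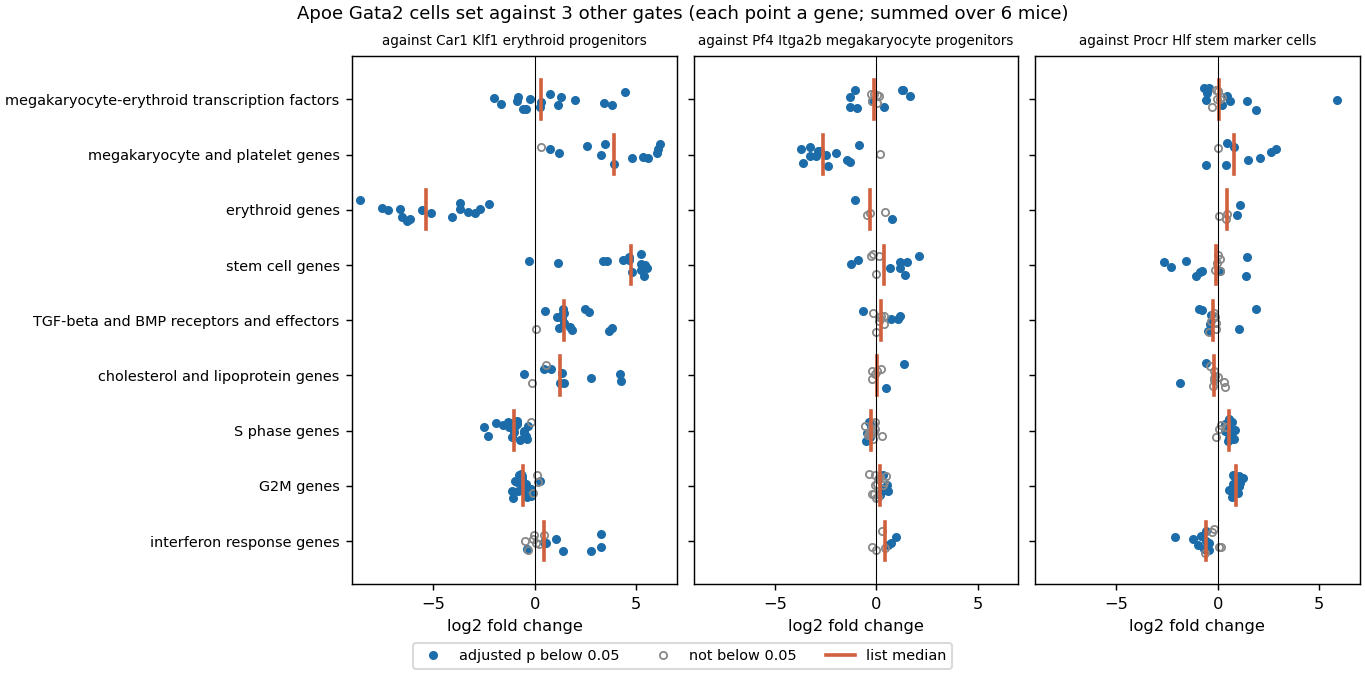
Log2 differences between Apoe Gata2 cells and erythroid progenitors, megakaryocyte progenitors or stem marker cells, with 1 point per tested member of 9 gene lists, filled where the adjusted p is under 0.05, and a red bar at each list's median. Megakaryocyte and platelet genes lie above 0 against erythroid progenitors (median 3.90) and below 0 against megakaryocyte progenitors (median -2.62), and all 20 G2M genes lie above 0 against stem marker cells.

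Beyond the lists, the largest differences were ranked among called genes with the same sign in every mouse and a mean of at least 50 CPM in the higher set. Against erythroid progenitors, the nuclear receptor Rora averaged 84.1 ± 21.7 CPM in Apoe Gata2 cells and 0.972 ± 0.548 CPM in erythroid progenitors (6.36 ± 0.26), followed by Mmrn1, a platelet multimerin (6.23 ± 0.30), and the cation channel Trpc6 (6.20 ± 0.21). The lowest included Paqr9, Sh3tc2 and Slc38a5, with 1, 1 and 3 UMIs in all Apoe Gata2 cells and 2250, 1663 and 2363 UMIs in erythroid progenitors. Against megakaryocyte progenitors, Cpa3 was followed by Lgals1, a galectin, at 91.2 ± 26.0 CPM in Apoe Gata2 cells and 4.72 ± 2.98 CPM in megakaryocyte progenitors (4.24 ± 0.31). The myeloid gene Mpo (myeloperoxidase, 3.04 ± 0.20) and the intermediate filament gene Vim (2.87 ± 0.14) were also among the 10 highest. The protease inhibitor gene Serpine2 (-6.17 ± 0.25), the TGF-beta binding protein gene Ltbp1 (-4.49 ± 0.28) and Ache, acetylcholinesterase (-4.34 ± 0.39), were among the 10 lowest. Against stem marker cells, Mfsd2b, a sphingosine-1-phosphate exporter of red cells and platelets, averaged 94.5 ± 38.0 CPM in Apoe Gata2 cells and 2.10 ± 2.22 CPM in stem marker cells (5.27 ± 0.31, adjusted p = 1.46e-18). The lowest were Wfdc17 (-3.40 ± 0.22) and Sema3d, a semaphorin (-3.04 ± 0.22), and Il1r1, the interleukin-1 receptor, was also low (-2.29 ± 0.18). All of these genes had the same sign in 6 of 6 mice.

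The Apoe Gata2 cells were not uniform. Of the 673 cells thinned to 2000 UMIs, 477 (70.9%) had no UMI of Itga2b, Klf1, Epor or Cpa3. There were 79 cells (11.7%) with Itga2b alone, 65 (9.66%) with Cpa3 alone and 21 (3.12%) with Klf1 or Epor alone. Itga2b and Cpa3 were found together in 16 cells, Itga2b with Klf1 or Epor in 12, Cpa3 with Klf1 or Epor in 3 and all 3 kinds in 0. A cell without a UMI can still express the gene, so these are counts of detection.

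Megakaryocyte and stem cell genes differed in both directions between the 84 cells with a Cpa3 UMI and the 589 without. Cavin2 was at 2.73 CPM in cells with Cpa3 and 33.5 CPM in cells without, Mecom at 240.0 and 682 CPM, Tgfbr3 at 175 and 319 CPM and F2r at 32.7 and 79.5 CPM, each lower in 6 of 6 mice. The level of Cavin2 with Cpa3 was near the floor, from 0 to 12.5 CPM over the mice. Late rapamycin replicates 1 and 2 had only 8 and 9 cells with Cpa3. Itga2b was at 106 CPM with Cpa3 and 77.1 CPM without, Cd34 at 215 and 174 CPM and Angpt1 at 3564 and 2928 CPM. Each of these was higher with Cpa3 in 5 of 6 mice. Other genes were higher in the cells with Cpa3 in 6 of 6 mice. Hdc, the histamine-forming enzyme, was at 46.4 CPM with Cpa3 and 5.75 CPM without, Il1rl1, the interleukin-33 receptor, at 51.8 and 14.2 CPM, and Slc18a2 at 308 and 176 CPM. Plek, pleckstrin, a member of the megakaryocyte and platelet list, was at 183 and 107 CPM. Gata1, at 87.3 and 68.0 CPM, was higher in 3 of 6 mice, so it showed no common direction. The median depth was 3994 UMIs in cells with Cpa3 and 4448 in cells without.

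The 203 cells with an Hlf UMI, set against the 470 without, had 908 and 508 CPM of Mecom, 246 and 147 CPM of Cd34, 94.0 and 33.3 CPM of Flt3 and 466 and 371 CPM of Kit, each higher with Hlf in 6 of 6 mice. They had 18.2 and 64.9 CPM of St8sia6, 56.6 and 91.2 CPM of Itga2b and 4.79 and 25.0 CPM of Klf1, each lower with Hlf in 6 of 6 mice. Gata1 was at 35.5 CPM with Hlf and 86.0 CPM without, lower in 5 of 6 mice. A UMI of Mki67 or Top2a was present in 42.9% of cells with Hlf and 58.1% of cells without. The marker St8sia6 and the megakaryocyte gene Itga2b were thus found mainly in the cells in which Hlf was not detected. Of the 107 cells with Itga2b, 16.8% had Hlf, against 32.7% of the 566 without. The 36 cells with Klf1 or Epor had 134 CPM of St8sia6 and 0 CPM of Flt3, against 45.7 and 55.2 CPM in the other cells. These splits are descriptions over cells of 6 mice, with no test. Cells were split after thinning, while the CPM levels use all their UMIs, so cells without a thinned UMI can still hold the gene.

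**Figure D3:**
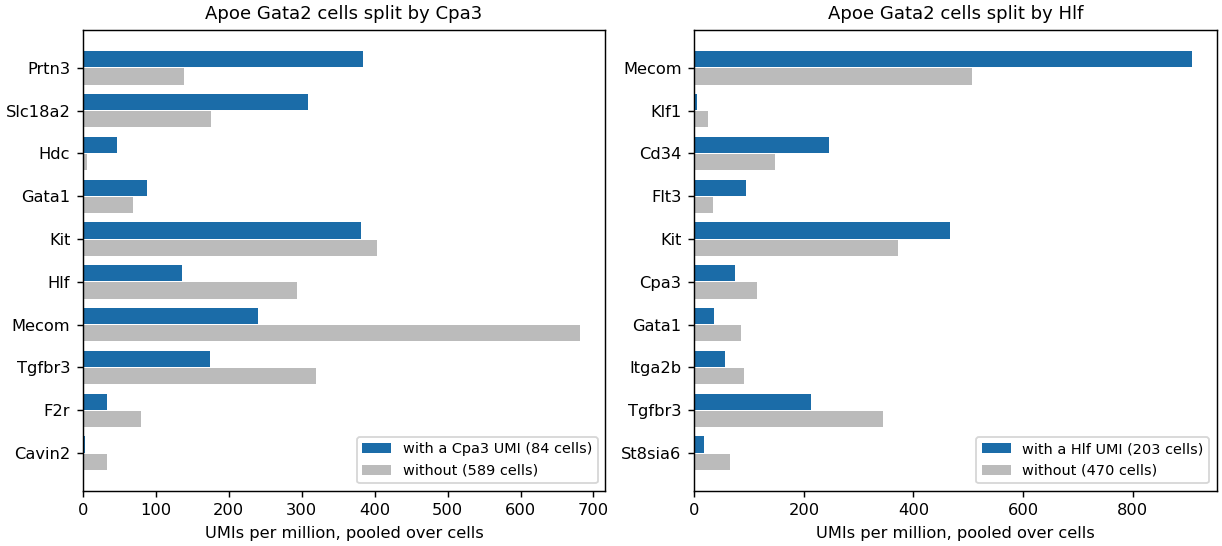
Level in CPM over the summed Apoe Gata2 cells with and without a UMI of Cpa3 (84 and 589 cells) and with and without a UMI of Hlf (203 and 470 cells), with 1 pair of bars per gene. Cells were split after thinning each to 2000 UMIs, and the bars use all UMIs of the cells of all mice. Cells with Cpa3 have less Mecom (240.0 against 682 CPM) and more Slc18a2 (308 against 176 CPM), and cells with Hlf have more Mecom and less Itga2b.

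The share of kept cells that were Apoe Gata2 cells was 2.04% (95% exact binomial interval 1.70% to 2.42%) and 2.14% (1.79% to 2.53%) in the tamoxifen+rapamycin mice, 1.19% (0.935% to 1.49%) and 1.97% (1.64% to 2.36%) in the tamoxifen mice and 1.13% (0.898% to 1.41%) and 2.60% (2.21% to 3.03%) in the late rapamycin mice. The intervals cover counting error only. Late rapamycin held both the lowest and the highest mouse, and both of the lowest shares were from day 1. Tamoxifen+rapamycin averaged 2.09 ± 0.0695%, tamoxifen 1.58 ± 0.557% and late rapamycin 1.86 ± 1.04% (SD, n = 2 each). Tamoxifen+rapamycin minus tamoxifen was 0.508 percentage points, with 0.852 on day 1 and 0.163 on day 2 (2-sided exact permutation p = 0.33, the smallest that 2 mice against 2 allow). Tamoxifen+rapamycin minus late rapamycin was 0.225 (0.907 on day 1 and -0.458 on day 2), and tamoxifen minus late rapamycin was -0.283 (0.0552 and -0.621), with exact permutation p = 1 for each. Without thinning, the days differed in sign in both comparisons with late rapamycin, and no comparison of 2 mice with 2 can pass a threshold of 0.05.

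Depth and the mix of sorted cells can set such shares. Kept cells of at least 2000 UMIs were therefore thinned to 2000 UMIs, which lowers detection of Apoe, Gata2 and the 6 excluded genes. Shallower cells were left out, which kept 4889 of 6229 cells in tamoxifen+rapamycin replicate 1 and 6668 of 7070 in late rapamycin replicate 1. A cell that lost its UMIs of an excluded gene could enter. As means of 100 draws, the shares were 1.16% and 1.01% with tamoxifen+rapamycin, 0.568% and 0.957% with tamoxifen and 0.545% and 0.964% with late rapamycin. Tamoxifen+rapamycin minus late rapamycin was then 0.332 percentage points, positive on both days (0.618 and 0.0459), so day 2 turned sign against the unthinned value (2-sided exact permutation p = 0.33). The kept cells had median depths of 3039 and 3823 UMIs with tamoxifen+rapamycin, 3108.5 and 3599 with tamoxifen and 4606 and 4320.5 with late rapamycin. In late rapamycin replicate 1, the other kept cells held 63795 CPM of neutrophil markers, against 18766 to 24202 CPM in the other 5 mice, and 114 CPM of B cell markers, against 629 to 1283 CPM. Among kept cells with a Kit UMI, the shares averaged 3.47 ± 0.0687% with tamoxifen+rapamycin, 2.54 ± 0.923% with tamoxifen and 3.01 ± 1.63% with late rapamycin, the same order as among all kept cells. The part of depth and of the sort in the shares was not tested. Within the Apoe Gata2 cells, Cpa3 was detected after thinning in 14.6% and 12.4% of cells with tamoxifen+rapamycin, 13.2% and 20.5% with tamoxifen and 10.1% and 5.73% with late rapamycin. Hlf was detected in 19.5% and 38.8%, 26.5% and 43.6%, and 13.9% and 31.2% in the same order, lower on day 1 than on day 2 in each treatment. A UMI of Mki67 or Top2a was present in 61.8% and 46.5%, 60.3% and 46.2%, and 59.5% and 52.2%, higher on day 1 in each treatment.

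**Figure D4:**
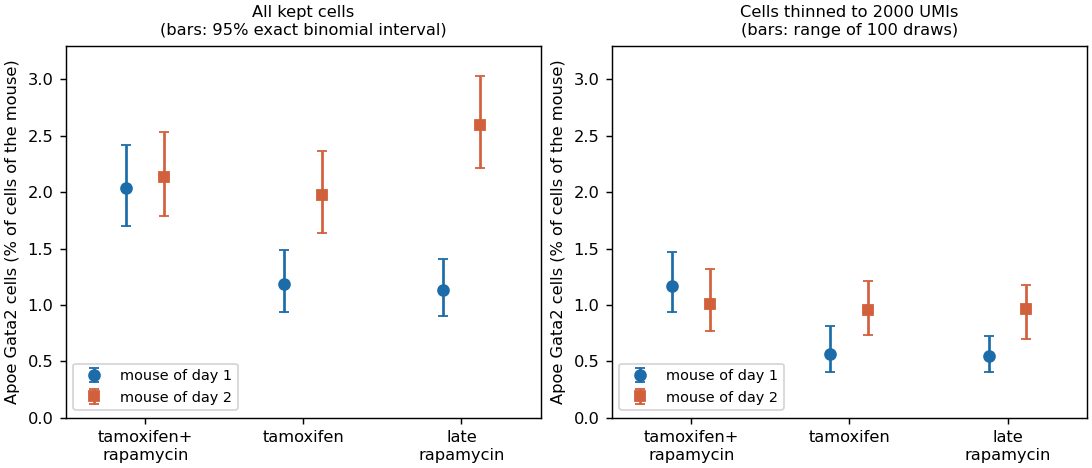
Left, Apoe Gata2 cells as a percentage of kept cells in each of the 6 mice with 95% exact binomial intervals, and right, the same among kept cells of at least 2000 UMIs after thinning each to 2000 UMIs, as the mean of 100 draws with their range, for tamoxifen+rapamycin, tamoxifen and late rapamycin by day. Unthinned shares run from 1.13% to 2.60%, both in late rapamycin mice.

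Few genes differed between treatments within the Apoe Gata2 cells. UMIs were summed per mouse, 8292 genes passed the low-count filter, and edgeR's quasi-likelihood test was fitted over the 6 mice with the processing day as a term. Against tamoxifen, 1 gene (0.0121%) was called in tamoxifen+rapamycin cells, against 443 with an unadjusted p under 0.05. Against late rapamycin, 10 genes were higher (0.121%) and 15 lower (0.181%) with tamoxifen+rapamycin, and 12 were higher (0.145%) and 7 lower (0.0844%) with tamoxifen. Both of these comparisons share the late rapamycin mice. Unadjusted p was under 0.05 for 618 and 642 genes in these 2 comparisons. The median log2 difference of all genes rounded to 0.00 in each of the 3. With DESeq2 the counts were 0, 1 and 0 in the same order of comparisons, and Prtn3 was the 1 gene called. Without the day as a block they were 0, 3 and 3. With no low-count filter they were 15, 65 and 55. Leaving out 1 mouse also moved them. Tamoxifen+rapamycin against tamoxifen then gave 9 or 7 calls without a tamoxifen+rapamycin mouse, 0 or 7 without a tamoxifen mouse and 22 or 23 without a late rapamycin mouse (replicate 1, then replicate 2). Tamoxifen+rapamycin against late rapamycin gave 16 without tamoxifen replicate 1 and 45 or 46 without a late rapamycin mouse. Tamoxifen against late rapamycin gave 47 or 39 without a tamoxifen+rapamycin mouse, 12 or 0 without a tamoxifen mouse and 51 or 48 without a late rapamycin mouse.

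Cpa3 had 89.3 and 84.0 CPM in the tamoxifen+rapamycin mice, 175 and 184 CPM in the tamoxifen mice and 45.2 and 68.1 CPM in the late rapamycin mice. Both tamoxifen mice were above the other 4, and both late rapamycin mice were the lowest. Against late rapamycin it was higher with tamoxifen (1.57 ± 0.21, adjusted p = 3.05e-04), by 1.93 on day 1 and 1.42 on day 2. Tamoxifen+rapamycin minus tamoxifen was -1.05 ± 0.20, adjusted p = 0.0610, short of the threshold, and tamoxifen+rapamycin minus late rapamycin was 0.51 ± 0.23, adjusted p = 0.611. The counts were 44 and 56 UMIs with tamoxifen+rapamycin, 52 and 106 with tamoxifen and 15 and 67 with late rapamycin. The other kept cells had 27.1 and 24.5 CPM with tamoxifen+rapamycin, 34.4 and 34.5 CPM with tamoxifen and 10.9 and 21.2 CPM with late rapamycin, with the tamoxifen mice again the highest. Over 15 alternatives the adjusted p of Cpa3 ran from 2.60e-09 to 0.253, and the call was lost with DESeq2 (0.253) and without tamoxifen replicate 2 (0.183).

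Prtn3, the granule protease proteinase 3, had 201 and 275 CPM in the tamoxifen+rapamycin mice, 189 and 184 CPM in the tamoxifen mice and 87.5 and 79.3 CPM in the late rapamycin mice. The 4 mice given tamoxifen did not overlap the late rapamycin mice. It was higher with tamoxifen+rapamycin (1.59 ± 0.18, adjusted p = 1.45e-05) and with tamoxifen (1.20 ± 0.20, adjusted p = 0.00479) than with late rapamycin. The call with tamoxifen+rapamycin was kept in 15 of 15 alternatives, with adjusted p from 4.87e-14 to 0.0427. With tamoxifen it was kept in 10 of 15. For Prtn3, the adjusted p ran from 7.49e-06 to 1.000 over 15 alternatives, with the call lost with DESeq2 (1.000), with a hashtag share of at least 95% (0.0632), without tamoxifen replicate 1 (0.162), without tamoxifen replicate 2 (0.226) and without late rapamycin replicate 2 (0.312). Its neighbour on chromosome 10, Elane, is at 0 UMIs by the rule. In the other kept cells Prtn3 had 1608 and 1275 CPM with tamoxifen+rapamycin, 1057 and 809 CPM with tamoxifen and 3701 and 1047 CPM with late rapamycin, an order unlike that in Apoe Gata2 cells. Ctse, the protease cathepsin E, had 181 and 162 CPM in the tamoxifen+rapamycin mice, 77.6 and 97.2 CPM in the tamoxifen mice and 63.3 and 60.0 CPM in the late rapamycin mice. Both tamoxifen+rapamycin mice were above all others, and its difference from late rapamycin passed the test (1.48 ± 0.20, adjusted p = 1.35e-04), while that from tamoxifen did not (0.92 ± 0.20, adjusted p = 0.168). The call of Ctse was lost with DESeq2 (0.531), and its adjusted p ran from 3.49e-09 to 0.531 over 15 alternatives. In the other cells Ctse had 178 and 194 CPM with tamoxifen+rapamycin, 125 and 153 CPM with tamoxifen and 63.5 and 123 CPM with late rapamycin, where tamoxifen+rapamycin was also the highest.

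Angpt1, the ligand of the receptor Tek, had 2697 and 3417 CPM in the tamoxifen+rapamycin mice, 2899 and 3900.1 CPM in the tamoxifen mice and 2118 and 2653 CPM in the late rapamycin mice. Within each day the late rapamycin mouse was the lowest. The differences were small, at 0.36 ± 0.07, adjusted p = 0.00887 with tamoxifen+rapamycin and 0.51 ± 0.07, adjusted p = 3.05e-04 with tamoxifen, each against late rapamycin, and Angpt1 was the only one of 15 stem cell genes tested that was called in either. Plek was the only one of 13 megakaryocyte and platelet genes called, with 134 and 126 CPM in the tamoxifen+rapamycin mice, 152 and 153 CPM in the tamoxifen mice and 72.4 and 79.3 CPM in the late rapamycin mice. It was higher with tamoxifen than with late rapamycin (0.98 ± 0.20, adjusted p = 0.0259), and the 4 mice given tamoxifen did not overlap the late rapamycin mice. Over 15 alternatives the adjusted p of Angpt1 ran from 9.73e-13 to 0.315, and the call was lost with DESeq2 (0.315), without the day as a block (0.253) and without tamoxifen replicate 2 (0.183). With tamoxifen+rapamycin, Angpt1 was kept in 10 of 15 alternatives. The settings that lost its call included DESeq2, no day as a block (0.760) and leaving out either tamoxifen+rapamycin mouse. Plek was kept in 8 of 15. The settings that lost its call included DESeq2, no day as a block (0.0945) and leaving out either tamoxifen mouse or late rapamycin replicate 2. In the other kept cells Angpt1 had 1000.4 and 959 CPM with tamoxifen+rapamycin, 1138 and 1287 CPM with tamoxifen and 300.0 and 1065 CPM with late rapamycin, and Plek had 87.3 and 74.3 CPM with tamoxifen+rapamycin, 90.4 and 71.9 CPM with tamoxifen and 54.5 and 59.2 CPM with late rapamycin.

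The Hsp70 genes Hspa8 and Hspa5 were lower in both tamoxifen treatments than with late rapamycin. Hspa8, the constitutive cytosolic Hsp70, had 901 and 894 CPM in the tamoxifen+rapamycin mice, 969 and 866 CPM in the tamoxifen mice and 1538 and 1365 CPM in the late rapamycin mice. No mouse given tamoxifen overlapped the late rapamycin mice, and the differences were -0.68 ± 0.09, adjusted p = 1.35e-04 with tamoxifen+rapamycin and -0.66 ± 0.09, adjusted p = 4.94e-04 with tamoxifen. With tamoxifen+rapamycin the call of Hspa8 was kept in 14 of 15 alternatives and lost with DESeq2 (adjusted p = 0.105). For tamoxifen against late rapamycin it was kept in 13 of 15. For Hspa8, the adjusted p ran from 7.07e-10 to 0.253 over 15 alternatives, with the call lost with DESeq2 (0.253) and without tamoxifen replicate 2 (0.183). Hspa5, the Hsp70 of the endoplasmic reticulum, was lower in both comparisons (-0.81 ± 0.15, adjusted p = 0.00887, and -0.72 ± 0.16, adjusted p = 0.0423). Dnaja1, a partner of Hspa8, was called with tamoxifen+rapamycin (-0.79 ± 0.14, adjusted p = 0.00714) and Hsp90b1, an endoplasmic reticulum Hsp90, with tamoxifen (-0.85 ± 0.15, adjusted p = 0.00876). Hspa5 was kept in 10 of 15 alternatives with tamoxifen+rapamycin. Its call there was lost with DESeq2, without the day as a block (0.0980) and without tamoxifen+rapamycin replicate 2, tamoxifen replicate 1 or late rapamycin replicate 2. With tamoxifen Hspa5 was kept in 7 of 15. The settings that lost that call included DESeq2, no day as a block (0.253) and leaving out either tamoxifen mouse or late rapamycin replicate 2. Hsp90b1 was kept in 11 of 15, and the settings that lost its call included DESeq2, no day as a block (0.135) and leaving out tamoxifen replicate 2. The call of Dnaja1 was lost with DESeq2 (1.000), without the day as a block (0.0922) and without tamoxifen+rapamycin replicate 2 (0.107). Hspa5 and Hsp90b1 are not members of the heat shock list. Dnaja1 and, for tamoxifen+rapamycin, Hspa8 lay outside the rule for naming genes and were chosen after their values were seen. Of 10 heat shock and cold-inducible genes tested, 0 were higher and 2 lower with tamoxifen+rapamycin, and 1 was higher and 1 lower with tamoxifen, against late rapamycin. The higher one was Rbm3, a cold-inducible RNA-binding protein, with 459 and 461 CPM in the tamoxifen+rapamycin mice, 688 and 590.1 CPM in the tamoxifen mice and 407 and 366 CPM in the late rapamycin mice. The tamoxifen mice were above the other 4, at 0.72 ± 0.12, adjusted p = 0.00479 against late rapamycin. The call of Rbm3 was lost with DESeq2 (1.000), without the day as a block (0.0945), without tamoxifen replicate 1 (0.176) and without tamoxifen replicate 2 (0.187), and its adjusted p ran from 1.03e-05 to 1.000 over 15 alternatives. Both patterns had the same order of treatments in the other kept cells. In the other kept cells Hspa8 had 1008 and 963 CPM with tamoxifen+rapamycin, 1159.8 and 1161 CPM with tamoxifen and 1578 and 1584 CPM with late rapamycin, and Rbm3 had 539 and 524 CPM with tamoxifen+rapamycin, 709 and 652 CPM with tamoxifen and 461 and 426 CPM with late rapamycin.

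The neutrophil genes S100a8, S100a9, Ngp, Camp, Ltf and Lcn2 were lower with tamoxifen+rapamycin than with late rapamycin in 6 of 7 neutrophil markers tested (median -3.10), and S100a8 and S100a9 were lower with tamoxifen. S100a9 had 156 and 67.5 CPM in the tamoxifen+rapamycin mice, 776 and 69.4 CPM in the tamoxifen mice and 1137 and 529.8 CPM in the late rapamycin mice. Most of the UMIs of these 6 genes came from single cells. In the tamoxifen+rapamycin mice the highest cell had 6 and 6 UMIs of them. In the tamoxifen mice 1 cell held 660 of 780 UMIs on day 1 and the highest held 4 on day 2. In the late rapamycin mice 1 cell held 822 of 936 UMIs on day 1 and 1 held 1489 of 1645 on day 2. Without cells over 5 such UMIs, an alternative added after seeing the data, the summed level was 415 and 188 CPM with tamoxifen+rapamycin, 412 and 179 CPM with tamoxifen and 339 and 155 CPM with late rapamycin. In that fit S100a9 was at 0.28 with tamoxifen+rapamycin and 0.35 with tamoxifen against late rapamycin, so its direction turned and it was not called. That fit called 17 genes with tamoxifen+rapamycin (11 higher and 6 lower) and 17 with tamoxifen (12 higher and 5 lower), against late rapamycin. Likewise, Cd74, called lower with tamoxifen+rapamycin, had 108 of its 109 UMIs of late rapamycin replicate 2 in 3 cells and opposite signs on the 2 days, and it was chosen after its values were seen.

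The 1 gene called between tamoxifen+rapamycin and tamoxifen was Gm47283, annotated on chromosome Y from 90784738 to 90816464 although the mice are labelled female. It had 249.6 and 141 CPM in the tamoxifen+rapamycin mice, 459 and 533 CPM in the tamoxifen mice and 217 and 381 CPM in the late rapamycin mice (-1.38 ± 0.21, adjusted p = 0.00457, with -0.88 on day 1 and -1.91 on day 2). The other kept cells had 257 and 123 CPM with tamoxifen+rapamycin, 418 and 594 CPM with tamoxifen and 181 and 389 CPM with late rapamycin, close to the same mouse's Apoe Gata2 cells each time. Over 15 alternatives the adjusted p of Gm47283 ran from 4.80e-19 to 1.000, and the call was lost with DESeq2 (1.000), without the day as a block (0.0598), with 1 UMI of each excluded gene allowed (0.213), without tamoxifen+rapamycin replicate 2 (0.367), without tamoxifen replicate 1 (0.498) and without tamoxifen replicate 2 (0.521). Gm15915 had 12.2 and 36.0 CPM with tamoxifen+rapamycin, 27.0 and 10.4 CPM with tamoxifen and 0 UMIs in both late rapamycin mice. Against a floor of 3 counts over the late rapamycin mice, it was at least 11.3-fold higher with tamoxifen+rapamycin and at least 7.03-fold higher with tamoxifen. It was called with tamoxifen+rapamycin (adjusted p = 0.00887). That call was lost with DESeq2 (0.867), without the day as a block (0.0831), without tamoxifen+rapamycin replicate 2 and without late rapamycin replicate 2. Also higher with tamoxifen than with late rapamycin were Lpcat2, a phospholipid acyltransferase (1.75 ± 0.36, adjusted p = 0.0301), Itsn1, an endocytic scaffold (1.18 ± 0.23, adjusted p = 0.0259), and Adgrg1, the adhesion receptor GPR56 (0.82 ± 0.18, adjusted p = 0.0423). Each of these 3 calls was lost without either tamoxifen mouse or without late rapamycin replicate 2. Each was also lost with DESeq2 and without the day as a block (adjusted p = 0.0945, 0.138 and 0.353 in the same order of genes).

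**Figure D5:**
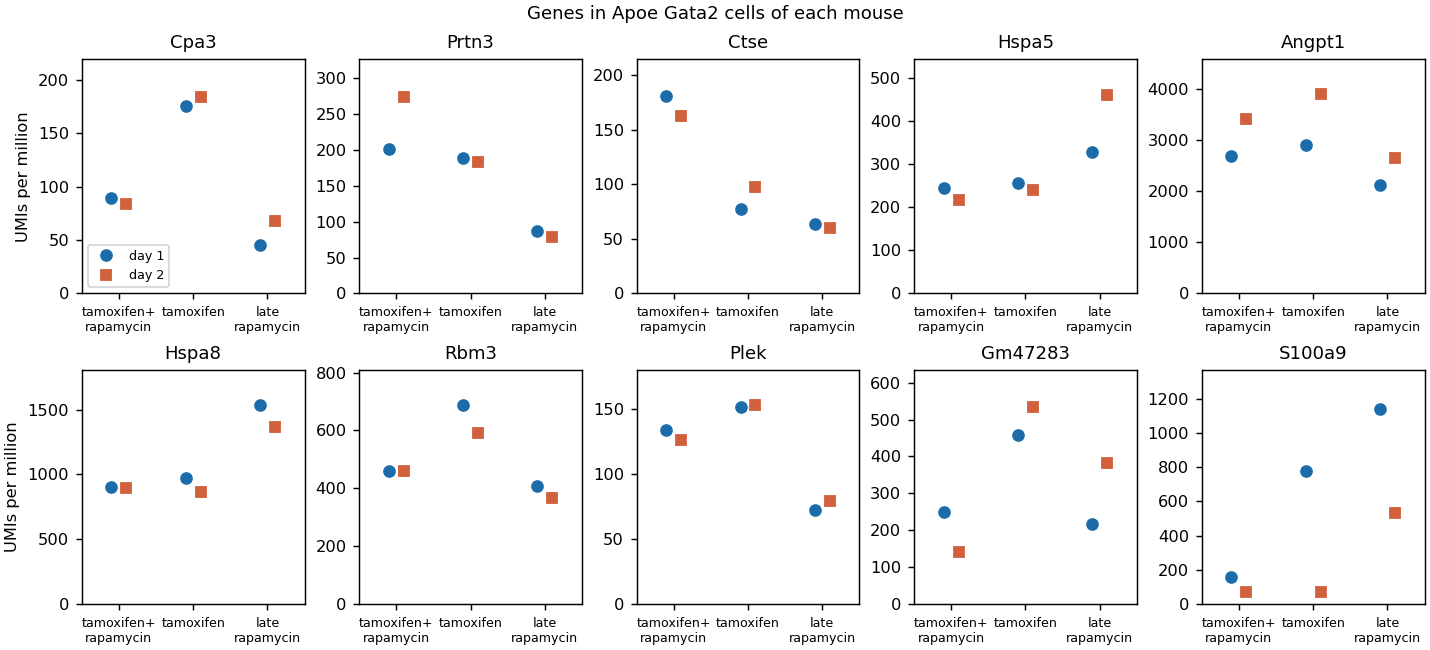
Level in CPM of 10 genes in the Apoe Gata2 cells of each of the 6 mice, 1 panel per gene, with tamoxifen+rapamycin, tamoxifen and late rapamycin from left to right and the 2 days marked. Cpa3 is 175 and 184 CPM in the tamoxifen mice and at most 89.3 CPM in the others, Hspa8 is 1538 and 1365 CPM in the late rapamycin mice and at most 969 CPM in the others, and S100a9 is highest in the 3 mice in which 1 cell held most neutrophil UMIs.

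Of 17 transcription factors, 8 erythroid genes, 14 TGF-beta and BMP genes, 9 thrombin receptor genes, 10 sialyltransferases, 11 cholesterol and lipoprotein genes, 20 S phase genes, 20 G2M genes, 12 interferon response genes and 13 mTORC1-responsive translation factors tested, 0 were called in any of the 3 treatment comparisons. Of all genes, 0.0121%, 0.301% and 0.229% were called in these comparisons in either direction, so 0 calls in lists of this size are near the background and are no result about the lists. The cholesterol and lipoprotein genes had a median of -0.35 against late rapamycin with both tamoxifen+rapamycin and tamoxifen. The medians of the mTORC1-responsive translation factors were 0.02 with tamoxifen+rapamycin against tamoxifen, -0.02 with tamoxifen+rapamycin against late rapamycin and -0.04 with tamoxifen against late rapamycin. Npm1, the member with the smallest p against late rapamycin, was at -0.19 ± 0.08, adjusted p = 0.599 with tamoxifen+rapamycin and -0.18 ± 0.08, adjusted p = 0.623 with tamoxifen. Oasl2, an interferon-induced gene, was at -1.34 ± 0.44, adjusted p = 0.405 with tamoxifen+rapamycin against late rapamycin. Of the markers not used by the rule, Tgfbr3 differed by 0.39 ± 0.15, adjusted p = 0.547 with tamoxifen+rapamycin and 0.23 ± 0.16, adjusted p = 0.793 with tamoxifen, F2r by -0.11 ± 0.24, adjusted p = 0.961 and 0.15 ± 0.24, adjusted p = 0.934, and St8sia6 by -0.30 ± 0.32, adjusted p = 0.911 and 0.44 ± 0.30, adjusted p = 0.793, each against late rapamycin. A p above the threshold with 2 mice per treatment does not show that these genes were alike.

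Markers of other cell types were summed per mouse. Monocyte markers were at 34.5 to 75.1 CPM in Apoe Gata2 cells and 413 to 755 CPM in the other kept cells, B cell markers at 15.6 to 31.5 CPM in Apoe Gata2 cells and 114 to 1283 CPM in the other kept cells with Igll1, Ebf1 and Ms4a1 at 0, and macrophage markers at 6.94 to 23.6 CPM in Apoe Gata2 cells and 45.8 to 58.5 CPM in the other kept cells. T and NK cell markers were at 111 to 246 CPM in Apoe Gata2 cells and 127 to 246 CPM in the other kept cells, with Cd3e, Trac and Klrd1 at 0, and dendritic cell markers at 119.7 to 171 CPM in Apoe Gata2 cells and 270.5 to 403 CPM in the other kept cells. Endothelial markers were at 124 to 239.5 CPM in Apoe Gata2 cells and 154 to 254 CPM in the other kept cells, with Cdh5 at 0, and stromal markers at 21.1 to 62.5 CPM in Apoe Gata2 cells and 11.8 to 22.8 CPM in the other kept cells, with Cxcl12, Lepr and Col1a1 at 0. Neutrophil markers were at 380.1 to 2983 CPM in Apoe Gata2 cells and 18766 to 63795 CPM in the other kept cells, with Elane at 0 by the rule. For each of these lists the sums in Apoe Gata2 cells were below those of the other cells or overlapped them over the 6 mice. The stromal sum was higher in Apoe Gata2 cells within each mouse.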

How the data were processed

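Single-cell 3′ RNA libraries and hashtag libraries of 2 days, with 3 mice each, were analysed. The authors deposited 1 table of UMI counts per day for all barcodes (25058 and 21409 barcodes, with 113535036 and 115505329 gene UMIs). Cell Ranger 7.0.0 and mm10 are named in the submitters' processing notes, while the deposited matrix headers name version 8.0.1. Whether intronic reads were counted is not given in the sources used here. Intronic reads, where counted, would raise long genes. Positions come from GENCODE M21, which held 32158 of the 32285 features.

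Treatments came from the deposited hashing table. Barcodes with mixed hashtags were left out by the 80% rule, 19619 and 18098 cells were kept, and 0 value columns were unmapped. Counts were summed per mouse. Genes passing filterByExpr were tested with edgeR 4.0.16 in R 4.3.3 (TMM, quasi-likelihood, Benjamini-Hochberg threshold 0.05), with treatment and day as terms between mice and the mouse as block between sets of cells. The day was used as a block because the design text says the mice were processed on 2 days. The correlations of same-day deviations were 0.0929, 0.113 and 0.0950, and the day term called 56 of 8294 genes. SE is the log2 difference divided by the square root of the F statistic. Shares were compared by exact permutation tests. Cell thinning, sums and exact intervals used Python 3.11.15 with numpy 2.4.6 and scipy 1.17.1. On simulated counts of 8274 genes for tamoxifen+rapamycin against late rapamycin, the test recovered 60.2% of changes of log2 size 1 and 92.8% of size 2.

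The members, the 22 gene lists and the tests were chosen with earlier results of these data known. Named genes were the markers and rule genes, up to 6 members of a list with the smallest p, up to 10 genes per direction and comparison with the largest change, and the 20 leading by ratio (at least 50 CPM in the higher cells for sets and ratios), less 4 genes that are not reported here. Alternatives were DESeq2 1.42.0, its size factors in edgeR, no low-count filter, no block, stricter cell filters, cells of few neutrophil UMIs (added after seeing the data), looser or stricter rules for members and leaving out each mouse.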

Additional observations from a re-analysis of the deposited data

Results flagged for a closer look

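In each of 84 values taken over the 6 mice, the farthest mouse's gap to its nearest neighbour was set against the range of all 6. Chance flags about 1 in 20 such groups, and 6 were set apart here. All of those set apart were log2 differences within mice. Against erythroid progenitors, the calcium channel gene Cacnb2 was at 6.59 in tamoxifen replicate 2 and 5.13 to 5.61 in the other mice, and Paqr9 at -4.90 in tamoxifen replicate 2 and -6.43 to -5.95 in the others. Paqr9 had 1 UMI in all Apoe Gata2 cells. Against megakaryocyte progenitors, Serpine2 was at -6.90 in tamoxifen+rapamycin replicate 1 and -5.64 to -5.35 in the others. Against stem marker cells, Smim5 was at 3.93 in tamoxifen+rapamycin replicate 2 and 1.34 to 2.20 in the others, Flt3 at -3.62 in late rapamycin replicate 1 and -2.83 to -2.43 in the others, and Lax1 at -4.23 in tamoxifen+rapamycin replicate 1 and -2.56 to -1.83 in the others. In each of the 6 the sign was the same in all mice.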

How the results depend on the processing

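With 2 mice per treatment, counts of called genes moved with the setting. Tamoxifen+rapamycin against tamoxifen, with 1 gene, gave 0 with DESeq2, 15 with no low-count filter, 0 without the day as a block, 2 in cells of at least 1000 genes and 2000 UMIs, 2 with at least 3 Apoe UMIs, 0 with 1 UMI of each excluded gene allowed and 0 to 23 when a mouse was left out. Tamoxifen+rapamycin against late rapamycin, with 25, gave 1 with DESeq2, 65 with no filter, 3 without the day as a block, 15 with a hashtag share of at least 95%, 16 with at least 3 Apoe UMIs and 16 to 46 when a mouse was left out. Tamoxifen against late rapamycin, with 19, gave 0 with DESeq2, 55 with no filter, 3 without the day as a block, 10 with a hashtag share of at least 95% and 0 to 51 when a mouse was left out. With DESeq2 size factors in edgeR, all 38 named treatment calls were kept. The causes of these moves were not tested. Fits without a mouse have 1 residual degree of freedom and take a lone mouse to vary like the others.

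Between sets of cells, DESeq2 called 924 genes against megakaryocyte progenitors and 1146 against stem marker cells. Leaving out a mouse gave 7063 to 7399, 1524 to 1720 and 1751 to 2300 calls against erythroid progenitors, megakaryocyte progenitors and stem marker cells. In the share of kept cells, tamoxifen+rapamycin minus tamoxifen ran from 0.114 to 0.901 when a mouse was left out. Tamoxifen+rapamycin minus late rapamycin ran from -0.507 (without late rapamycin replicate 1) to 0.956. Tamoxifen minus late rapamycin ran from -1.01 to 0.449 and turned sign with thinning (0.00782), without tamoxifen replicate 1 (0.111) and without late rapamycin replicate 2 (0.449).

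Without cells of more than 5 neutrophil UMIs, log2 differences that turned sign with tamoxifen+rapamycin against late rapamycin were Ngp 0.15, Camp 0.0429, Lcn2 0.71, S100a9 0.28 and S100a8 0.42, and with tamoxifen S100a9 0.35 and S100a8 0.22. Mixed hashtags mark only doublets between mice, and the depth of 296324 to 983442 UMIs per mouse limits genes of few UMIs.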
